A study of Homo sapiens with 4 samples.

Results

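Genes of the mesenchymal matrix and of epithelial-mesenchymal transition (EMT) were described in the breast cancer line MDA-MB-231Br, which derives from MDA-MB-231 and goes by the parent's name in the sample titles. The 10 members were FN1, FBN1, LTBP1, LOX and HAS2 as matrix products, VIM as the cytoskeletal marker, and ZEB1, ZEB2, SNAI2 and TWIST1 as EMT transcription factors. They were found by gene symbol in the platform annotation, and all 10 had a named probe set, 12 probe sets in all, out of 14884 genes named there. One group had received a lentiviral short hairpin RNA against YTHDF3 (shYTHDF3), the m6A reader whose knockdown the labels state, and the other a control hairpin (shControl), with 2 arrays each. Both groups went through puromycin selection, so transduction and drug were shared by the controls. The labels do not say how many hairpins were used or whether arrays of 1 group stem from separate cultures; any spread and p-value quoted covers the spread between arrays and may be technical.

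The members were chosen by their shYTHDF3 to shControl differences and by their known roles, with an earlier analysis of the same 4 arrays known, in which FN1, LOX, ZEB1 and FBN1 had already been looked at. Their differences between the groups are therefore given as a description. No probe set was named YTHDF3, so the knockdown itself was not analysed here.

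During EMT, epithelial cells lose their junctions and take up a migratory, matrix-producing state. The transcription factors of the ZEB, SNAI and TWIST families bind E-box sequences and repress epithelial genes such as the cadherin CDH1. Cells in the mesenchymal state carry vimentin filaments and secrete fibronectin, microfibril proteins, cross-linking enzymes and hyaluronan. ZEB1 and ZEB2 are in turn held down by microRNAs of the miR-200 family. MDA-MB-231 cells are widely used as a mesenchymal breast cancer model.

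The promoter windows of 4 matrix members are shown because these genes had the differences described next, and because their starts are in the RefSeq table used here (GRCh38.p14). HAS2 has no start listed there, so its promoter was not looked at. Each line gives the 250 bases before the most upstream listed start, 5′ to 3′ on the gene's own strand. Capitals mark matches on either strand to the cyclic AMP response element TGACGTCA, to the hypoxia-inducible factor core ACGTG, or to the E-box CACCTG.
FN1 (chr2:215436069-215436318, minus strand): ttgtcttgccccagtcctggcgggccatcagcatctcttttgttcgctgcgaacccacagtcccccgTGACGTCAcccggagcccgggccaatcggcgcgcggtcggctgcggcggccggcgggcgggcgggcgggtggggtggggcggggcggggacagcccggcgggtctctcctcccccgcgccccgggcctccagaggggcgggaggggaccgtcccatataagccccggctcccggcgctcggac
LTBP1 (chr2:32946703-32946952, plus strand): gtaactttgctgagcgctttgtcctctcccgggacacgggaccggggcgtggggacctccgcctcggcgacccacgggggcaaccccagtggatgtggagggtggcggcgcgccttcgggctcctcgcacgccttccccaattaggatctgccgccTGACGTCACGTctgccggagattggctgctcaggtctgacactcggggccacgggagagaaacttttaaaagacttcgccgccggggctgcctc
LOX (chr5:122078260-122078509, minus strand): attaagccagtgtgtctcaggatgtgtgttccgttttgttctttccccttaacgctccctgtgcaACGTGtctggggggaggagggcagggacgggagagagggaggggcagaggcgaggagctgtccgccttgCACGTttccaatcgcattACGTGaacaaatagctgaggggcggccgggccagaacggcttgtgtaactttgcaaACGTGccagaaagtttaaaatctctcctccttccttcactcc
FBN1 (chr15:48644971-48645220, minus strand): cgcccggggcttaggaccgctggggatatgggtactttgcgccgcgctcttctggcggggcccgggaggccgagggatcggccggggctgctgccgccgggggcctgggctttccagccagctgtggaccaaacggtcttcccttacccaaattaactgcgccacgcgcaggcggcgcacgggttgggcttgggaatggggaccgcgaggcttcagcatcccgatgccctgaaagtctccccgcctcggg
The FN1 and LTBP1 windows each held 1 TGACGTCA, beginning at -183 and -94 from the start, a motif found in 1.65% of 35116 promoter windows of this length. The LOX window held 4 matches to ACGTG, which occurred at least once in 18.5% of windows. LTBP1 held 1 ACGTG match, which overlapped its TGACGTCA by 2 bases. CACCTG, present in 17.5% of windows, was not in any of the 4 shown, and the FBN1 window held none of the 3 motifs. LOX and LTBP1 each have 3 listed starts, and their windows differed: for LOX, 2 of the 3 held CACCTG and all 3 held ACGTG, while for LTBP1 only the window shown held TGACGTCA or ACGTG. A match is only a run of letters, and binding was not measured.

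HAS2 and FN1 had the largest differences of the members, both lower in shYTHDF3 cells and by nearly the same amount. LOX, LTBP1 and, of the EMT factors, ZEB1 were lower on both knockdown arrays by a smaller amount. FBN1 was higher. All values are log2 expression as deposited, after the array normalization named RMA. Each difference is the shYTHDF3 mean minus the shControl mean, with the standard error (SE) of limma's fit over 12755 genes.

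HAS2, the hyaluronan synthase that extrudes the large sugar polymer hyaluronan into the matrix, had values of 7.37 and 8.04 on the shYTHDF3 arrays, against 9.24 and 9.33 on the shControl arrays. Both knockdown arrays lay below both controls, and the knockdown arrays stood 0.67 apart, a wider gap than that of 97.9% of tested genes between the same arrays. The means were 7.71 ± 0.47 and 9.28 ± 0.06 (SD, n = 2 each), a log2 difference of -1.57 (SE 0.22) or 2.98-fold. That is rank 25 of 12755 counted from the lowest difference.

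FN1 encodes fibronectin, the adhesive glycoprotein that cells assemble into fibrils through integrins. Its values were 6.09 and 5.68 on the shYTHDF3 arrays and 7.37 and 7.40 on the shControl arrays. The groups were 1.27 apart at their nearest. The knockdown arrays differed by 0.41, a wider gap than that of 89.2% of tested genes between the same arrays, and the controls by 0.04. The means were 5.89 ± 0.29 and 7.38 ± 0.03 (SD, n = 2 each), a log2 difference of -1.50 (SE 0.16) or 2.83-fold, at rank 31 from the lowest.

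LOX, the secreted oxidase that cross-links collagen and elastin, stood at 7.99 and 8.18 on the shYTHDF3 arrays, against 8.76 and 8.89 on the shControl arrays. The groups did not overlap, and the log2 difference was -0.74 (SE 0.14), at rank 192 from the lowest. LTBP1, which holds latent TGF-beta in the matrix and binds fibronectin and fibrillin fibres, had 5.40 and 5.06 on the shYTHDF3 arrays and 5.93 and 5.88 on the shControl arrays. It too was lower on both knockdown arrays, with a log2 difference of -0.68 (SE 0.15), at rank 231.

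FBN1, the microfibril protein fibrillin-1, ran the other way. Its values were 6.22 and 6.26 on the shYTHDF3 arrays, against 5.80 and 5.97 on the shControl arrays. The groups lay 0.25 apart at their nearest, and the log2 difference was 0.36 (SE 0.13, 95% interval 0.05 to 0.67). The interval is not adjusted for the number of genes tested, and limma's adjusted p for FBN1 was 0.279. By sign, 4 of the matrix products were lower and 1, FBN1, was higher, but FBN1 did not pass the test over all genes.

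**Figure D1:**
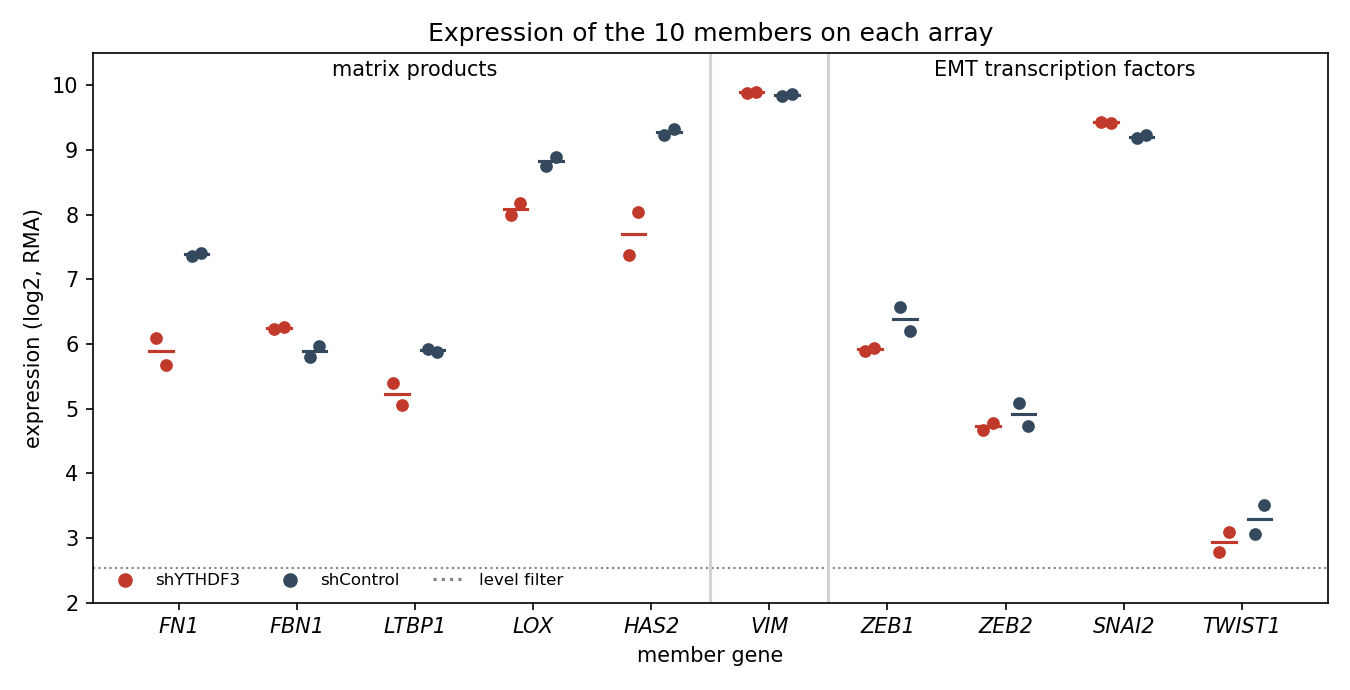
Log2 expression of each member on each array, with shYTHDF3 arrays to the left of shControl arrays within each gene, group means as short lines and the level filter as a dotted line. HAS2 and FN1 show the widest separation, VIM points nearly coincide, and ZEB2 and TWIST1 groups overlap. SNAI2 groups lie 0.19 apart at their nearest. Heights of different genes are not comparable, because each probe set has its own response.

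The knockdown arrays did not order the lower members alike. Replicate 1 of shYTHDF3 was the lower of the pair for HAS2 and LOX, and replicate 2 was the lower for FN1 and LTBP1. Leaving out shYTHDF3 replicate 1 made the log2 difference of HAS2 -1.24 and that of FN1 -1.70. Leaving out shYTHDF3 replicate 2 made them -1.91 and -1.29. The control arrays were close together for HAS2 and FN1, with gaps of 0.09 and 0.04.

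Of the EMT transcription factors, ZEB1 had the most negative difference and SNAI2 a small positive one. None passed the test over all genes. ZEB1, a zinc finger repressor of epithelial genes, had values of 5.90 and 5.94 on the shYTHDF3 arrays, against 6.58 and 6.19 on the shControl arrays. The knockdown pair lay below both controls, but the controls themselves differed by 0.38. The log2 difference was -0.47 (SE 0.16, 95% interval -0.84 to -0.09), moving to -0.28 when shControl replicate 1 was left out and to -0.66 when shControl replicate 2 was. ZEB2, its close relative, had 4.68 and 4.77 on the shYTHDF3 arrays and 5.09 and 4.74 on the shControl arrays. The groups overlapped, and the log2 difference of -0.19 (SE 0.16) shrank to -0.01 without shControl replicate 1.

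SNAI2, the repressor also called Slug, stood at 9.43 and 9.43 on the shYTHDF3 arrays and at 9.18 and 9.23 on the shControl arrays. The groups did not overlap, with a log2 difference of 0.22 (SE 0.13, 95% interval -0.07 to 0.51). TWIST1, a basic helix-loop-helix factor, had 2.78 and 3.09 on the shYTHDF3 arrays, against 3.07 and 3.51 on the shControl arrays. The groups overlapped, and the log2 difference was -0.35 (SE 0.19), or -0.57 with shControl replicate 1 left out, -0.13 with shControl replicate 2 left out and -0.20 with shYTHDF3 replicate 1 left out. The array medians were 3.20 to 3.22, so TWIST1 was read at a level where RMA compresses differences.

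VIM, the intermediate filament vimentin, had values of 9.88 and 9.90 on the shYTHDF3 arrays and 9.83 and 9.86 on the shControl arrays through its brightest probe set. The log2 difference was 0.05 (95% interval -0.25 to 0.34), while the arrays of each group agreed within 0.03. A further 2 probe sets carried the VIM symbol and read differently. Probe set 16712274 stood at 8.63 and 8.72 on the shYTHDF3 arrays, against 7.47 and 8.10 on the shControl arrays, a log2 difference of 0.89 (SE 0.21). Probe set 16712272 had a difference of 0.22 (SE 0.14). The SEs of these 2 come from a separate limma fit over all named probe sets above the level filter.

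**Figure D2:**
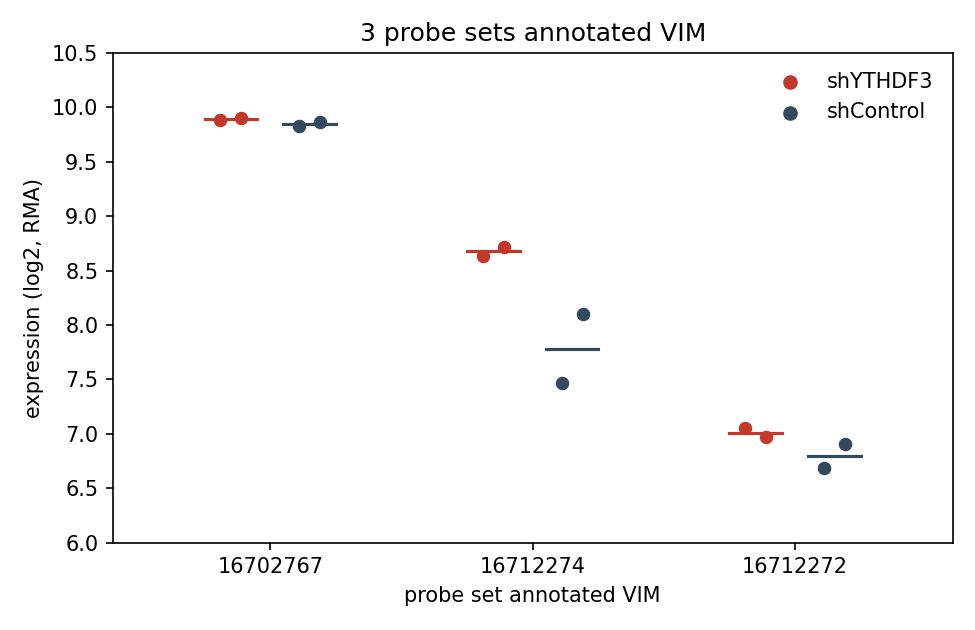
Log2 expression of the 3 probe sets annotated VIM on each array, shYTHDF3 left of shControl, with group means as lines. The brightest, 16702767, differs by 0.05 between the groups and 16712274 by 0.89, with the control arrays of the latter 0.63 apart.

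The identifiers of these probe sets fall in different runs of the array. Identifiers follow strand here, since 94.1% of 11329 neighbouring pairs of named probe sets on 1 chromosome belonged to genes on the same strand. VIM lies on the plus strand of chromosome 10. Around its brightest probe set, 28 of 29 neighbours within 20 named probe sets on either side were plus-strand genes. Around 16712272 and 16712274, 29 of 31 were minus-strand genes. Which transcript these 2 probe sets read was not tested, and the brightest one is used as VIM below.

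Over the array as a whole, 96 of 12755 genes passed limma's test with Benjamini-Hochberg adjustment at 0.05, or 0.753%. Of these, 85 were lower (0.666%) and 11 higher (0.0862%) in shYTHDF3 cells. HAS2 and FN1 were the 2 of 10 members called, both lower, and 0 were called higher. Since the members were listed with this comparison known, the 2 calls describe them and support nothing further. Every member passed the level filter. Groups did not overlap for 5 members on the lower side and 3 on the higher side, where 22.8% and 22.6% of all tested genes did the same (45.5% together).

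Both calls depended on the arrays used. Without shYTHDF3 replicate 1 only FN1 was called, without shYTHDF3 replicate 2 only HAS2, and without either control array neither was. LOX was called in addition when the level filter was raised to the 50th percentile and when the variance model followed intensity.

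**Figure D3:**
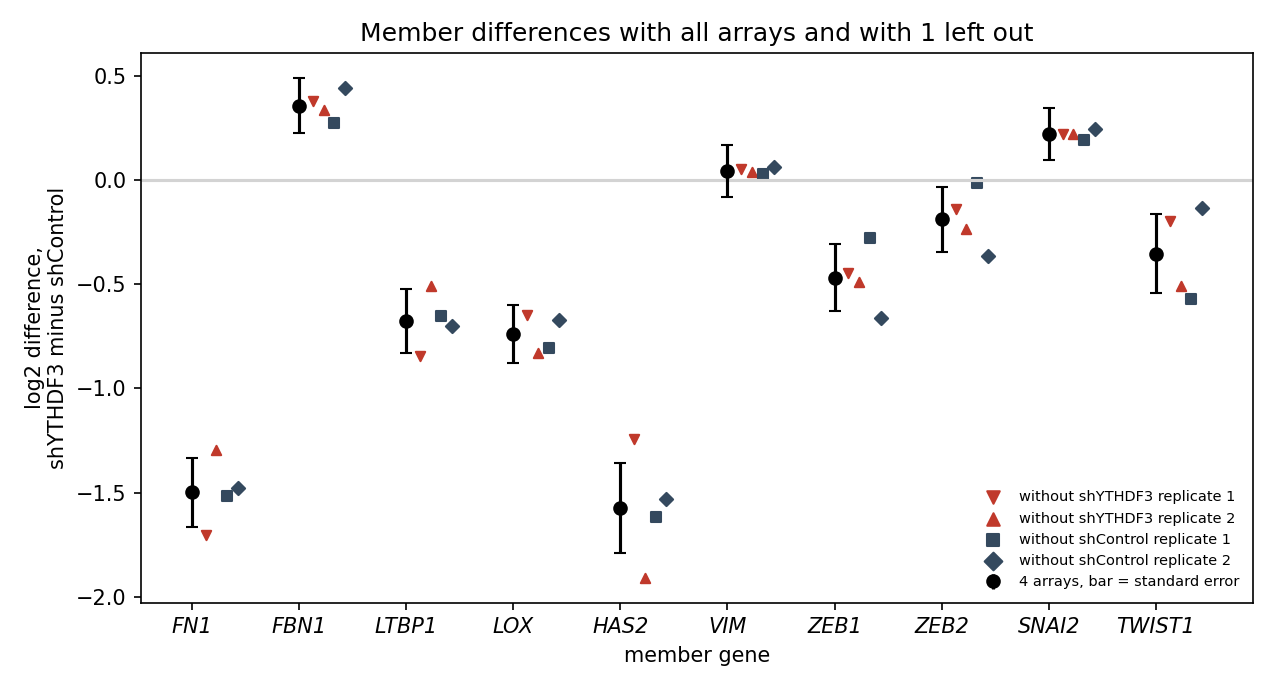
Log2 difference (shYTHDF3 minus shControl) of each member with all 4 arrays, with its standard error as a bar, and with each array left out in turn. HAS2 moves between -1.91 and -1.24 and FN1 between -1.70 and -1.29, and no member changes sign when 1 array is left out.

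The median log2 difference was -0.74 over the 5 matrix products and -0.27 over the 4 EMT factors, against 0.00 over all tested genes. Matrix products ranged from -1.57 to 0.36 and EMT factors from -0.47 to 0.22. With LTBP1 set aside, the median of the other 4 matrix products was -1.12. The EMT factor median ran from -0.36 to -0.14 with 1 array left out, and was -0.14 without shControl replicate 1 and -0.17 without shYTHDF3 replicate 1. These medians rest on few genes whose direction was known, and the difference between them was not tested.

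**Figure D4:**
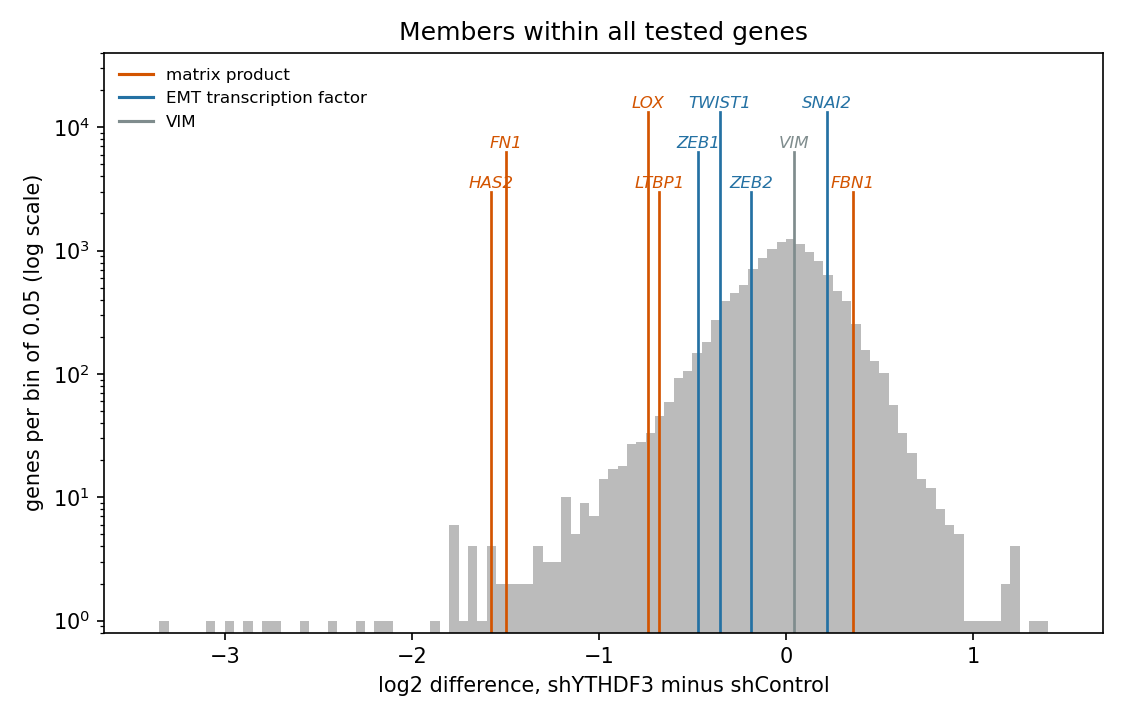
Distribution of the log2 difference (shYTHDF3 minus shControl) over the 12755 tested genes, on a log count axis, with the members as vertical lines coloured by role. HAS2 and FN1 lie in the left tail, and LOX and LTBP1 on its shoulder. ZEB1 and TWIST1 have 4.75% and 8.66% of tested genes below them, and FBN1 has 94.1%. VIM, ZEB2 and SNAI2 lie within the bulk.

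The genes nearest to FN1 in their pattern over the 4 arrays, by distance between values centred on each gene's mean, were AGR2, ASNS, MIR21, DUSP1 and STARD4. AGR2 is a protein disulfide isomerase of the endoplasmic reticulum, and ASNS makes asparagine. MIR21 is a microRNA locus, DUSP1 is a MAP kinase phosphatase and STARD4 carries sterols. Each was lower in shYTHDF3 cells, with log2 differences from -1.67 for AGR2 to -1.27 for MIR21. With only 4 arrays and a shared group difference, many genes can look alike in this way.

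Genes around the members were read from 12 lists of 253 genes, of which 148 were named on the array and 142 passed the level filter. In these lists 1 gene was called, ENG, and 0 were called lower. At limma's unadjusted p of 0.05, 18 list genes were lower and 9 higher, 19.0% of those tested, against 14.7% of all genes (8.48% lower and 6.24% higher). None of the 26 listed collagens had a named probe set, so collagens were not analysed here.

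Among the 13 tested genes of hyaluronan synthesis, breakdown and binding, 0 passed the adjusted threshold in either direction and the median difference was -0.03. The gene with the smallest p was UGDH, the dehydrogenase that makes UDP-glucuronic acid, a building block HAS2 uses. UGDH stood at 8.93 and 8.95 on the shYTHDF3 arrays, against 9.85 and 9.65 on the shControl arrays. The groups lay well apart, with a log2 difference of -0.81 (SE 0.14) and an adjusted p of 0.0546 from limma. UGDH was past the threshold in 5 of the other settings, among them all 3 further normalizations, with adjusted p-values between 0.0029 and 0.398 over all settings. HYAL2, a hyaluronidase, had a difference of 0.39, TLR4, a receptor reported to sense hyaluronan fragments, 0.33, and UXS1, which draws on UDP-glucuronic acid, 0.28. CD44, the main hyaluronan receptor, had 8.30 and 8.28 on the shYTHDF3 arrays and 8.17 and 8.06 on the shControl arrays, a log2 difference of 0.17. HAS3, another synthase, had 4.47 and 4.37 on the shYTHDF3 arrays and 4.32 and 4.58 on the shControl arrays, and its groups overlapped.

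The enzymes of matrix cross-linking and collagen modification, LOX aside, had a median difference of -0.34 over 9 tested genes. Of the 9, 8 were negative, where 49.2% of all tested genes were. None was called. Unadjusted limma p-values under 0.05 were found for 4 lower genes and 1 higher gene, 55.6% of the 9, against 14.7% of all tested genes. The list was drawn up with earlier results of these arrays known, so this share is a description. The list held 18 genes, and its PLOD and P4HA enzymes had no named probe set. CRTAP, a subunit of the collagen prolyl 3-hydroxylase complex, had the smallest p, with a log2 difference of -0.57 (SE 0.13) and an adjusted p of 0.116. PPIB, the cyclophilin of the same complex, had -0.35. The LOX relatives did not share a direction, since LOXL2 and LOXL3 had -0.34 and -0.40 and LOXL1 had 0.30.

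All 16 genes of elastic fibres and microfibrils were tested and 0 were called, with a median of 0.01. EFEMP1, the glycoprotein fibulin-3, had 6.51 and 6.21 on the shYTHDF3 arrays and 7.18 and 7.08 on the shControl arrays. It was lower on both knockdown arrays, with a log2 difference of -0.77 (SE 0.15) and an adjusted p of 0.0822 from limma. FBLN5, which helps assemble elastic fibres, had -0.39. LTBP2, a relative of LTBP1, had 0.14 and MFAP2, a microfibril glycoprotein, had -0.15.

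Among 12 tested matrix glycoproteins, 0 were called and the median was 0.10. None of the listed laminins had a named probe set. CCN2, the connective tissue growth factor, had a log2 difference of -0.52 (SE 0.16). The thrombospondins THBS1 and THBS2 had -0.34 and -0.32, and the basement membrane proteoglycan AGRN had 0.35. Of 27 listed receptors for fibronectin and other matrix proteins, with the adaptors that anchor them, 11 had a named probe set. None of the listed integrins did, so integrins were not analysed here. The 11 tested genes had 0 called and a median of 0.08. At limma's unadjusted p of 0.05, 1 gene was higher and 0 were lower, or 9.09%, against 14.7% of all tested genes. The syndecan SDC1 had 0.41, the tensin TNS3 0.23, the collagen receptor DDR2 0.16 and the integrin-bound talin TLN1 0.10.

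None of the 9 tested genes of TGF-beta activation and signalling, the pathway that LTBP1 serves, was called, and the median was 0.02. The list held 17 genes, and its TGFB and TGFBR genes had no named probe set, so they were not analysed here. The inhibitory SMAD7 had 0.55 (SE 0.21), the repressor SKI 0.35 and the signal transducer SMAD3 0.31. THBS1, which can activate latent TGF-beta and is also among the glycoproteins above, had -0.34, and 4 of the 9 were negative.

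Among 22 other EMT transcription factors and their partners, 0 were called and 11 were negative, with a median of -0.01. An unadjusted limma p under 0.05 was found for 4 lower genes and for 1 higher gene, FOXQ1, which had 0.32. Together that is 22.7% of the 22, against 14.7% of all tested genes. SNAI1, the relative of SNAI2 also called Snail, had 4.08 and 4.29 on the shYTHDF3 arrays and 4.84 and 4.43 on the shControl arrays. Its log2 difference of -0.45 (SE 0.17) had the opposite sign to that of SNAI2. The corepressor CTBP2, which ZEB proteins recruit, had -0.46, the factor KLF4 -0.44 and the homeobox factor PRRX1 -0.43. The list was not divided by whether a factor promotes or opposes EMT. Neither its median nor the difference of KLF4 therefore stands for EMT drivers.

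The epithelial genes that EMT factors repress also had a negative median, at -0.20 over 24 tested genes, of which 19 were negative and 0 were called. Over all tested genes, 49.2% had a negative difference. KRT18, a simple epithelial keratin, had 8.98 and 8.93 on the shYTHDF3 arrays, against 8.26 and 8.64 on the shControl arrays, a log2 difference of 0.50 (SE 0.16). The claudins CLDN7 and CLDN1 had -0.48 and -0.35, and the tight junction scaffold TJP3 had -0.55 (SE 0.23). TJP3 and CLDN1 read little above the array medians, with means of 3.59 and 3.67 over the 4 arrays. CDH1 had no named probe set and was not analysed here.

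The miR-200 family members that act on ZEB1 and ZEB2 fall into 2 seed classes, shown with the seed (bases 2 to 8) in capitals, from RefSeq (GRCh38.p14).
hsa-miR-200b-3p: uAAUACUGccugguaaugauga
hsa-miR-200c-3p: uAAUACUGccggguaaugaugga
hsa-miR-429: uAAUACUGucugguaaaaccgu
hsa-miR-200a-3p: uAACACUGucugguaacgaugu
hsa-miR-141-3p: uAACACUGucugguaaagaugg
Of the first class, MIR200B had values of 2.95 and 3.24 on the shYTHDF3 arrays and 3.28 and 3.33 on the shControl arrays. MIR200C and MIR429 were below the level filter of 2.54 and were not tested. Of the second class, MIR200A and MIR141 had log2 differences of -0.02 and 0.13. These probe sets read near or under the array median and were annotated to precursor transcripts, so mature microRNAs were not measured. MIR205, of another seed, had -0.09, and 0 of the 4 tested loci were called or had an unadjusted p under 0.05 from limma.

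Among 12 tested mesenchymal cell markers ENG alone was called. ENG, the TGF-beta co-receptor endoglin, had 8.29 and 8.24 on the shYTHDF3 arrays, against 7.29 and 7.14 on the shControl arrays, a log2 difference of 1.05 (SE 0.13) and limma's adjusted p was 0.0205. The call was lost with any 1 array left out. The actin-binding proteins CNN2 and CALD1 had -0.49 and -0.48, the calcium-binding S100A4 had 0.31 and the surface glycoprotein THY1 -0.17. The list's median was -0.03.

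**Figure D5:**
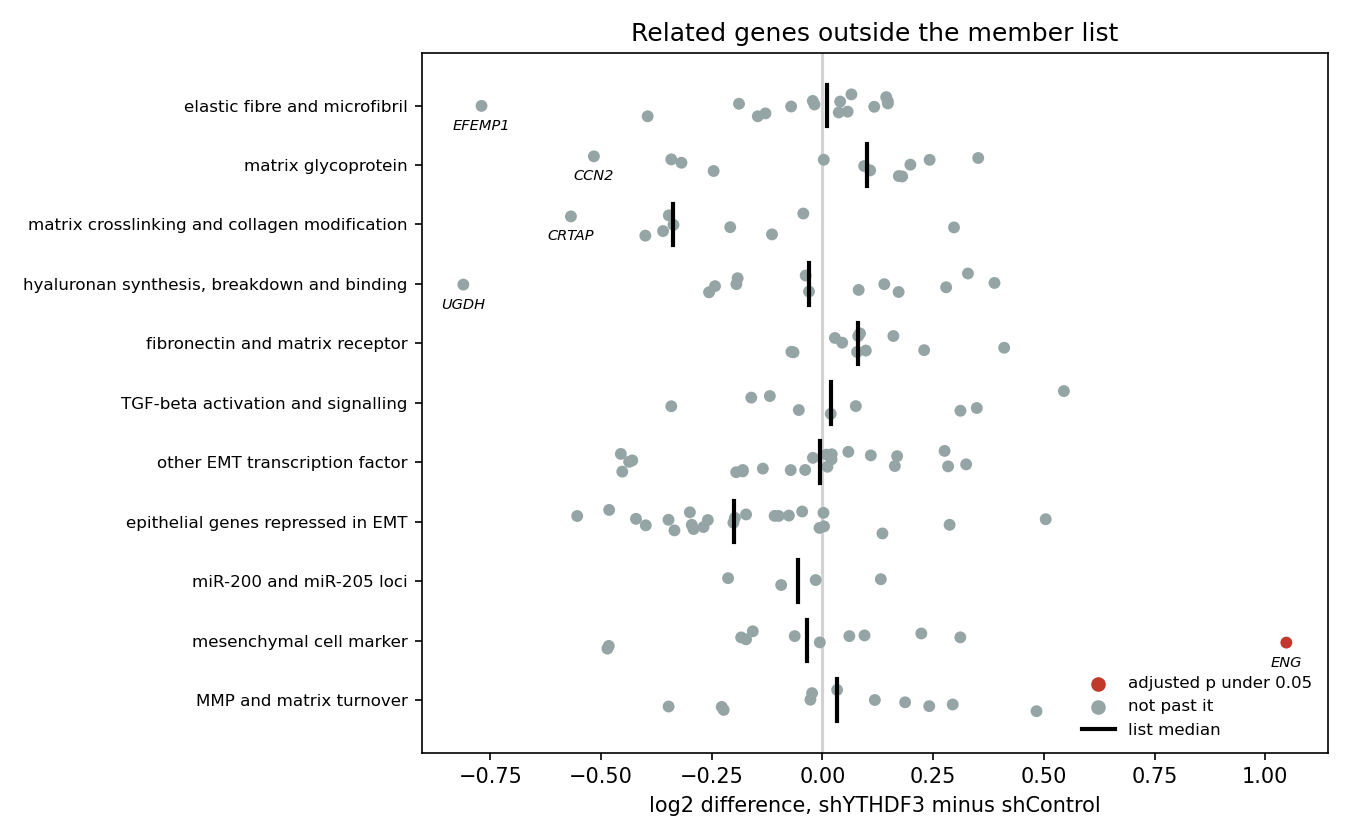
Log2 difference (shYTHDF3 minus shControl) of each tested gene in the lists around the members, 1 point per gene, with the list median as a black bar and genes past an adjusted p of 0.05 in red. ENG is the red point at 1.05, and UGDH at -0.81 and EFEMP1 at -0.77 are the lowest of the others.

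The labelled line was checked against marker genes. Of 7 measured markers of mesenchymal breast cancer lines, 6 (MSN, AXL, FOSL1, EGFR, VIM and CD44) lay above the 75th percentile of all probe sets. Of 8 measured epithelial markers 3 did, KRT18, EPCAM and KRT19. Probe sets differ in response, so these positions describe signal on the array and do not rank the genes. Fibroblasts, which also make fibronectin and hyaluronan, had 3 of 9 markers measured and none above that percentile. LUM and DCN were under the level filter, and the summed log2 level ran from 8.08 to 8.30 on shYTHDF3 arrays and from 8.15 to 8.30 on shControl arrays. Of 3 measured leukocyte markers CD68 alone was above the 75th percentile, and of 4 endothelial markers 0 were. No marker in these lists was called between the groups.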

How the data were processed

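Gene expression was measured on 4 Affymetrix arrays, 2 per group, and groups were taken from the sample titles. The deposited table held log2 values, which per the submitters' processing notes the authors made with RMA; for its version, settings and genome build, the sources used here say nothing. RMA equalises arrays and compresses weak signals. Precision is limited by the number of arrays.

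The table had 53617 probe sets. GEO's platform annotation gave 1 symbol for 16098, several for 0 and none for 37519. RefSeq matched the Entrez identifier of all 16098 and changed 0 symbols. Each gene was read from its probe set of highest mean, and tested if that mean was at or above 2.54, the 30th percentile over the whole table. The comparison used R 4.3.3 and limma 3.58.1 (lmFit and eBayes without covariates, 2-sided), p-values were adjusted over all tested genes by Benjamini-Hochberg with a threshold of 0.05, and the code was tested on simulated data. Residual degrees of freedom were 2 and prior ones 5.30. The smallest 2-sided p that permuting these arrays can give is 0.333, so adjusted p-values rest on the spread shared across genes.

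Members, lists and tests were chosen with earlier results of these data known. Named genes were all members, each list's called genes and its 4 further genes of smallest p, the 5 nearest FN1 (LOC symbols passed over) and the markers. CD44, HAS3, LOXL1, FOXQ1, MIR200C and MIR429 were added after their values were seen. No coordinates of probe sets are given. Alternatives covered the filter, probe set rule, normalization, variance model, replicate block, threshold and leaving out each array.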

Additional observations from a re-analysis of the deposited data

How the results depend on the processing

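Every member kept the sign of its log2 difference under each alternative filter, probe set rule, normalization, replicate block and left-out array that gave it a value; TWIST1 was not tested at the 50th percentile filter. VIM differed by 0.38 with the mean of all its probe sets and by 0.01 after cyclic loess. The count of genes called was 167 at the 50th percentile filter, 375 with an intensity trend and 250 at an adjusted p under 0.10. Leaving out an array gave 0 to 36 genes called, with 0 without either control (1370 and 1392 genes at an unadjusted p under 0.05 from limma), 0 to 1 members and 0 list genes. List genes called numbered 2 (ENG and UGDH) at the 50th percentile filter, with equal array medians, after quantile normalization and after cyclic loess, 5 with an intensity trend and 3 at an adjusted p under 0.10. The matrix product median was -1.12 without LTBP1 and -0.85 to -0.70 with 1 array left out. With the replicate number as a block, 11 genes, 0 members and 0 list genes were called. The correlation of same-numbered arrays' deviations from their group means was 0.043 over 2 pairs. With 2 arrays a group the deviations mirror each other, so the 2 pairs amount to 1 contrast. No label ties the numbers, and whether same-numbered arrays share a culture or batch is not known. The causes of these moves were not tested, apart from the fewer arrays or genes that a setting itself entails. Precision is limited by 2 arrays a group and, for TWIST1 and the miR-200 loci, by signal near the array median. Other named genes also read near or little above that median, with 4-array means from 3.22 to 3.73. These include S100A4, MFAP2, THBS2, ADAM12, DDR2, TJP3, SMAD7, CLDN1 and SMAD3, and their differences carry the same limit.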

Other observations

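Enzymes and inhibitors of matrix turnover were also read. Of the 19 listed, 12 had a named probe set. MMP2, MMP3, MMP7, MMP9, PLAU, PLAUR and SERPINE2 had none and were not analysed here. Of 11 tested genes 0 were called by limma's adjusted test, and the median log2 difference was 0.03. Unadjusted limma p-values under 0.05 were found for 1 higher gene and 0 lower genes, or 9.09%, against 14.7% of all tested genes. ADAM12, a membrane metalloprotease, had 3.81 and 3.79 on the shYTHDF3 arrays, against 3.50 and 3.13 on the shControl arrays, a log2 difference of 0.48. The metalloprotease inhibitors TIMP1 and TIMP2 had -0.35 and 0.24, and the sheddase ADAM17 had -0.23. TIMP1 had 6.82 and 7.42 on the shYTHDF3 arrays and 7.48 and 7.45 on the shControl arrays.

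MIR200C, under the level filter and without a test, had 1.96 and 2.16 on the shYTHDF3 arrays and 2.67 and 2.66 on the shControl arrays.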
